A study of Mus musculus with 6 samples.

Results

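Skeletal muscle sarcomere genes are the genes of the contractile apparatus of striated muscle and of the proteins that come with it. They were taken as a fixed list of 36 genes, each represented by its probe of highest mean over all arrays, and 31 of them had a named probe among the 16593 genes named on the array. Myh2, Myh3, Tnnt2, Neb and Mybph had none and are not analysed here. The tissue was not muscle: RNA came from the embryonic day 15 frontal cortex of 6 males of the C57BL/6J strain, and each embryo had its own Illumina MouseRef-8 bead array. 3 embryos were transgenic for a bacterial artificial chromosome (BAC, clone RP24-333C15) that spans Cyfip1, an actin and translation regulator, made by pronuclear injection. The other 3 were wild-type littermates without it. How many founder lines were used is not given in the sources used here, and no probe bore the name Cyfip1, so the transgene's own level was not analysed. All 6 arrays share one slide number in the labels.

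A sarcomere is built from thick filaments of myosin and thin filaments of actin, tropomyosin and troponin, anchored at Z-discs and held in register by titin. Fast and slow fibres, and embryonic and adult fibres, use different paralogues of the myosin chains and of the 3 troponin subunits. The myogenic factors Myod1 and Myog switch these genes on together in myoblasts. Cortical tissue holds no skeletal muscle, and of these genes only a few, such as the tropomyosins, are also widely used in non-muscle cells.

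Levels below are deposited log2 values of the probe for a gene, compared only for the same probe between embryos, because probes differ in brightness for the same amount of RNA. Transgenic values are listed for samples 1, 2 and 3 and then wild-type values for samples 1, 2 and 3. A value was counted as above the background level where it exceeded the 95th percentile of the 1303 olfactory and vomeronasal receptor probes on its array, which lay between 7.03 and 7.09. The files give no detection p-value, so this level stands in for one. Dim probes sit on that background, so differences on this scale understate those of dim genes.

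The animal numbers in the sample titles fall into a pair of ranges. Transgenic sample 1 and wild-type sample 3 are numbered under 100 and the other 4 embryos over 200, with no meaning stated for either range. Transgenic sample 1 also had the lowest mean correlation with the other arrays, 0.962 against 0.975 to 0.983, and median scanner intensity was lower on these arrays (131.1 and 130.3) than on the others (137.1 to 178.5). Each genotype result below is therefore given with all 6 embryos and among the 4 numbered over 200.

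The promoters of a few members are shown because the members moved together across embryos and because the myogenic factors bind a known short motif. Each is the window of 250 bases before to 50 bases after the annotated start (RefSeq, build GRCm38.p6), read 5′ to 3′ on the gene's strand. Myl1, Tnnt1, Actc1 and Acta1 have the largest range over the 6 embryos in their classes (fast, slow, embryonic and all-fibre), and Myog is the myogenic factor described last. Capitals mark exact matches to the E-box CANNTG, the MEF2 site YTAWWWWTAR and the CArG box CCWWWWWWGG. N is any base, Y is C or T, R is A or G, and W is A or T. Near matches stay in lower case, such as ctatatttat in the Myog window, which departs from the MEF2 form in its last base. A window without capitals for a motif may therefore still hold a looser form of it.
Myl1 (chr1:66945007-66945306, minus strand): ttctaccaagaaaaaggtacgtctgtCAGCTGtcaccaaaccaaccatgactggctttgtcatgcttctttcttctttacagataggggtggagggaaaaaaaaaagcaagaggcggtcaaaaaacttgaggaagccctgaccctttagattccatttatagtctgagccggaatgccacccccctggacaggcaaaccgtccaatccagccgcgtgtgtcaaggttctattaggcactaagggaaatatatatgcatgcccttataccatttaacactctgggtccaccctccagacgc
Tnnt1 (chr7:4515926-4516225, minus strand): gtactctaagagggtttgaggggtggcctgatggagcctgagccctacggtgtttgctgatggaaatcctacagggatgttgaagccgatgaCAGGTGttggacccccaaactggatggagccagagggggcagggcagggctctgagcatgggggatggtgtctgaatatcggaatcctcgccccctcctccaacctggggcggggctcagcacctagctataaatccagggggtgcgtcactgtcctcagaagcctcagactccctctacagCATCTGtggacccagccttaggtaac
Actc1 (chr2:114052826-114053125, minus strand): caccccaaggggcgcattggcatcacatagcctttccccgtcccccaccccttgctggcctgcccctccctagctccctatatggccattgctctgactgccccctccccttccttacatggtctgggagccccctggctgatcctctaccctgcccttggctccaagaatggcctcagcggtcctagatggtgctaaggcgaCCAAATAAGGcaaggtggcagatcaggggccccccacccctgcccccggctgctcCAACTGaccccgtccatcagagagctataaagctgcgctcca
Acta1 (chr8:123894726-123895025, minus strand): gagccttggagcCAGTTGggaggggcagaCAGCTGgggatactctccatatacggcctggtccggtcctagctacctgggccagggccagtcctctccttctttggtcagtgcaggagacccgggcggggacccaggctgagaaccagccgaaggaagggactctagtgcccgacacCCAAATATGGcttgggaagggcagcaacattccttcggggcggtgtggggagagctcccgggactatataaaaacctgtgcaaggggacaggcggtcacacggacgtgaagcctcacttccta
Myog (chr1:134289754-134290053, plus strand): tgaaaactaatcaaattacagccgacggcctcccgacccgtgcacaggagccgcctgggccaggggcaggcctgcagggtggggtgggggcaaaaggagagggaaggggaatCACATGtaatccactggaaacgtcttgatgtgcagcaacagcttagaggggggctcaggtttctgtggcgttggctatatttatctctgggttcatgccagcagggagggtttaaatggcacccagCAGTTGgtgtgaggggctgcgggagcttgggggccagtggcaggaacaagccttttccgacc

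RefSeq windows were found for 29 of the 36 members, 36 windows in all, some of which overlap because a gene has several starts. CANNTG, which reads the same on both strands, stood in 31 of them (86.1%) against 72.3% of the 32851 promoter windows in the table. The form CAGCTG, a subset of CANNTG, stood in 15 (41.7%) against 16.3%, and CACCTG or its reverse complement CAGGTG in 9 (25.0%) against 20.2%. The MEF2 site stood in 4 windows (11.1%) against 3.19%, and the CArG box, which serum response factor binds, in 5 (13.9%) against 1.63%. The CArG box is in the printed windows of Actc1 and Acta1 and the form CAGCTG in those of Myl1 and Acta1. These are letter matches, not binding sites.

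Apart from Tpm1, Tpm2 and Myh8, described below, the brightest muscle genes stood out in 2 embryos, 1 of each genotype. Most members were at or near background in the other 4. Transgenic sample 1 was the highest embryo for 27 of the 31 members, where it was the highest for 21.4% of all probes. For 18 members the order was transgenic sample 1 first and wild-type sample 3 second, an order that 6.26% of all probes shared. 27 members lay above the background level in transgenic sample 1 (56.2% of all probes did) and 23 in wild-type sample 3 (54.9% of all probes). In the other transgenic embryos 16 and 13 members did (57.5% and 57.4% of all probes), and in the other wild-type embryos 15 and 13 (56.1% and 53.9%). In bulk tissue, fewer cells of a type and less RNA per cell cannot be told apart.

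**Figure D1:**
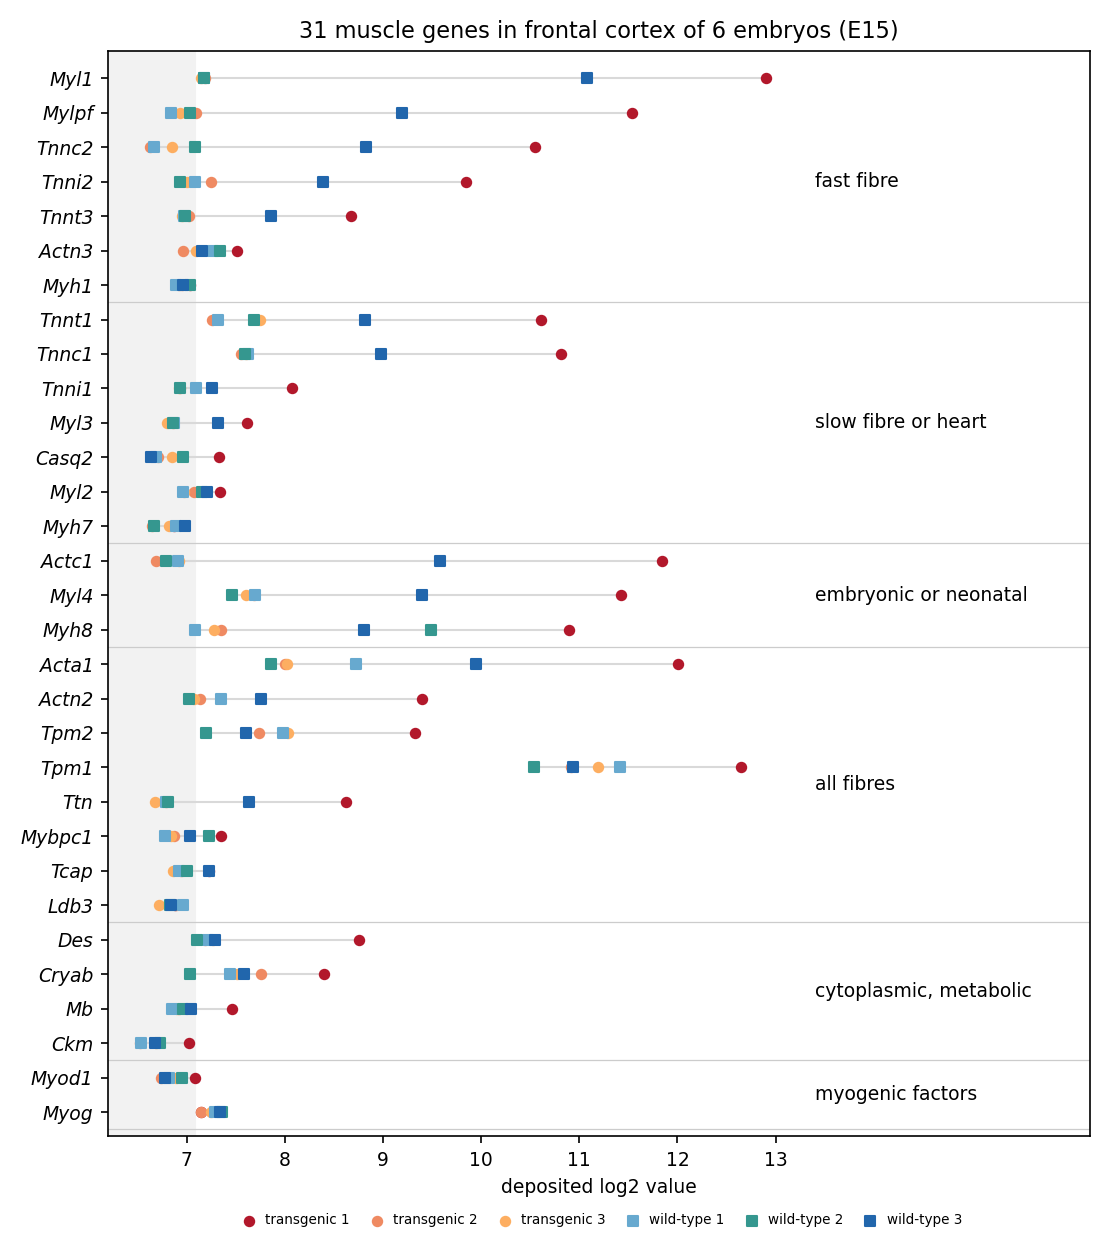
Deposited log2 value of each of the 31 members (horizontal axis) in each embryo, circles for transgenic and squares for wild-type, grouped by class; the shaded band ends at the highest background level of any array, 7.09. Transgenic sample 1 lies farthest right for 27 members, and wild-type sample 3 stands between it and the other 4 embryos for most bright members.

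Among genes of fast fibres, 4 of 7 ranged over more than 2 across the embryos, as did 3 of 3 embryonic genes with a probe. So did 4 of 8 all-fibre and 2 of 7 slow genes, and 0 of the cytoplasmic genes and myogenic factors. Of the 16593 genes named on the array, 342 that are no members ranged over at least 2. Myl1, the essential light chain of fast skeletal myosin, stood at 12.90, 7.19 and 7.15 in transgenic embryos and at 7.18, 7.18 and 11.08 in wild-type ones. The other 4 embryos lay within 0.04 of each other, and relative to their median Myl1 was 52.9-fold brighter in transgenic sample 1 and 14.9-fold brighter in wild-type sample 3. The genotype groups overlapped, with a difference of 0.60 (SE 1.82, limma adjusted p = 0.958). Mylpf, the regulatory light chain of fast myosin, stood at 11.54, 7.10 and 6.93 against 6.84, 7.04 and 9.19, again with 1 high embryo in each group, and differed by 0.83 (SE 1.33, limma adjusted p = 0.914).

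The fast troponins behaved alike across embryos. Tnnc2, the calcium-binding subunit, stood at 10.55, 6.63 and 6.85 against 6.67, 7.09 and 8.83, and differed by 0.48 (SE 1.13, limma adjusted p = 0.940). Tnni2, the inhibitory subunit, stood at 9.85, 7.25 and 7.00 against 7.09, 6.93 and 8.39, and differed by 0.56 (SE 0.81, limma adjusted p = 0.903). In both genes the groups overlapped, with transgenic sample 1 highest and wild-type sample 3 second. Tnnt3, the tropomyosin-binding subunit of fast fibres, ranged over 1.73, with 8.68 in the highest embryo, transgenic sample 1, and 7.86 in wild-type sample 3. Actn3, the α-actinin of fast Z-discs, ranged over only 0.55, and Myh1, an adult fast myosin heavy chain, ranged over 0.16 and was above the background level in no embryo.

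Of the slow-fibre genes, which the heart largely shares, the troponins carried the pattern. Tnnc1, troponin C of slow fibres and heart, stood at 10.81, 7.55 and 7.61 against 7.63, 7.60 and 8.98, and differed by 0.59 (SE 0.92, limma adjusted p = 0.911). Slow troponin T, Tnnt1, stood at 10.61, 7.26 and 7.75 against 7.32, 7.69 and 8.82, and differed by 0.60 (SE 0.90, limma adjusted p = 0.906). Transgenic sample 1 was highest and wild-type sample 3 second for both, and the groups overlapped. Slow troponin I, Tnni1, was dimmer, at 8.07, 6.93 and 6.92 against 7.10, 6.93 and 7.26. Myl3, a slow and ventricular light chain, stood at 7.62, 6.86 and 6.80 against 6.87, 6.86 and 7.32, with the same embryos on top. Values close to the background level throughout were found for Myl2, the ventricular and slow regulatory light chain (7.34, 7.08 and 6.97 against 6.96, 7.16 and 7.21). Casq2, a calcium store protein of slow fibres and heart, stood at 7.33, 6.71 and 6.85 against 6.69, 6.96 and 6.64, so that wild-type sample 3 was the lowest embryo. The slow myosin heavy chain Myh7 was above the background level in none.

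Genes of embryonic and newborn muscle were bright in the same embryos. Actc1, cardiac actin, which is also an actin of early skeletal muscle, stood at 11.84, 6.69 and 6.92 against 6.91, 6.79 and 9.58. It exceeded the background level in transgenic sample 1 and wild-type sample 3 only, the groups overlapped, and the difference was 0.72 (SE 1.51, limma adjusted p = 0.934). Myl4, an embryonic and atrial light chain, stood at 11.43, 7.69 and 7.61 against 7.70, 7.46 and 9.40, again with overlapping groups and a difference of 0.72 (SE 1.10, limma adjusted p = 0.908).

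Myh8, the perinatal myosin heavy chain, was the exception in this class. It stood at 10.90, 7.35 and 7.28 against 7.09, 9.49 and 8.81, so that wild-type sample 2 was the second highest embryo. Its second probe stood at 9.01, 7.07 and 7.14 against 7.05, 7.92 and 7.67, in the same order. Wild-type sample 2 exceeded the other 3 embryos numbered over 200 by more than 1 for 1 of 31 members, Myh8, where 0.183% of all probes did so. The groups overlapped, with a difference of 0.05 (SE 1.10, limma adjusted p = 0.995). In that embryo the midbrain and hindbrain markers had their highest mean, 8.78 against 7.51 to 8.47 elsewhere, and the cortex markers their lowest, 7.90 against 8.28 to 9.74. The lists were not uniform. En1, En2 and Irx2 were highest in that embryo, but Gbx2 was lowest there (7.29), and Pax5 and Pax8 exceeded the background level in no embryo. Hoxb2 did not exceed that level in wild-type sample 2 (7.03) and was highest in transgenic sample 1 (7.60). Of the cortex markers, Tbr1, Neurod2, Eomes, Pax6 and Fezf2 were lowest there. Bcl11b was lower in transgenic sample 3, and Lhx2 stood at 9.51, near its highest value of 9.57. The part of these markers in the Myh8 value was not tested.

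Among genes used by all fibres, Acta1, the main actin of skeletal thin filaments, stood at 12.01, 8.00 and 8.02 against 8.73, 7.86 and 9.95. Wild-type sample 1 lay above the other 3 embryos numbered over 200, the groups overlapped, and the difference was 0.50 (SE 1.15, limma adjusted p = 0.940). Actn2, the α-actinin of striated Z-discs, stood at 9.40, 7.14 and 7.08 against 7.35, 7.03 and 7.76, and differed by 0.49 (SE 0.62, limma adjusted p = 0.884). Ttn, the giant spring titin, was above the background level in transgenic sample 1 (8.62) and wild-type sample 3 (7.64) only. Mybpc1, a slow myosin-binding protein, Tcap, the titin cap, and Ldb3, a Z-disc adaptor, ranged over 0.57, 0.37 and 0.23.

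The tropomyosins Tpm1 and Tpm2, which also serve non-muscle actin filaments, differed from the other bright members. Tpm1 stood at 12.65, 10.92 and 11.19 against 11.42, 10.54 and 10.94, with transgenic sample 1 highest and wild-type sample 3 within the range of the embryos numbered over 200. The brightest Tpm2 probe stood at 9.33, 7.74 and 8.03 against 7.98, 7.20 and 7.61, and wild-type sample 2 was lowest for both genes. A second Tpm2 probe had the pattern of the fast-fibre genes, at 9.92, 6.90 and 7.17 against 7.01, 7.05 and 8.55, while one more probe stayed between 6.68 and 6.92. Groups overlapped for both genes, with differences of 0.62 (SE 0.47, limma adjusted p = 0.808) for Tpm1 and 0.77 (SE 0.43, limma adjusted p = 0.772) for the brightest Tpm2 probe. Of 8 smooth muscle and pericyte genes, 5 were highest in transgenic sample 1, and 2 of them exceeded the embryos numbered over 200 by more than 1 there. Acta2, the actin of smooth muscle, stood at 12.24, 10.35 and 10.18 against 11.03, 7.17 and 9.79, with wild-type sample 2 lowest. Tagln, Myh11 and Cnn1, which also mark smooth muscle, ranged over 0.26, 0.33 and 0.25 near the background level, and Rgs5, a pericyte gene, was lowest in transgenic sample 1 (7.36).

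Des and Cryab, a muscle intermediate filament and a small heat shock protein that chaperones it, had their highest value in transgenic sample 1, without a second high embryo of the wild-type group. Des stood at 8.76 there and between 7.11 and 7.29 in the other 5 embryos. Cryab, which glial cells also make, stood at 8.40, 7.76 and 7.51 against 7.44, 7.04 and 7.59, and differed by 0.53 (SE 0.25, limma adjusted p = 0.759). Its groups overlapped over all 6 embryos and did not overlap among the 4 numbered over 200, as for 16.3% of all probes with higher transgenic values. Mb, the oxygen store myoglobin, exceeded the background level in transgenic sample 1 (7.46) only, and Ckm, muscle creatine kinase, in none.

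The myogenic factors were dim. Myod1 stood at 7.09, 6.74 and 6.89 against 6.82, 6.95 and 6.78, above the background level in transgenic sample 1 only. Myog, whose promoter is shown above, stood at 7.15, 7.15 and 7.25 against 7.29, 7.36 and 7.34 by its brighter probe. Its groups did not overlap, as for 1 of 31 members against 6.9% of all probes with lower transgenic values; 0 members were higher without overlap, against 5.39% of all probes. For Myog the difference was -0.15 (SE 0.07, limma adjusted p = 0.759). The other Myog probe stood at 7.74, 7.02 and 6.91 against 6.81, 6.95 and 7.50, with transgenic sample 1 and wild-type sample 3 on top and overlapping groups. The sign of the Myog difference thus depended on the probe.

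Several genes had more than one probe, and the dimmer probes often showed less of the pattern. The second Actc1 probe stood at 8.98 in the transgenic and 7.55 in the wild-type bright embryo, and between 6.59 and 6.89 in the others. For the second Myl1 probe these values were 8.07 and 7.08, with 6.73 to 6.91 in the others. Both Myh8 probes, 2 of 3 Tpm2 probes and both probes of Actc1 and Myl1 had their highest value in transgenic sample 1.

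Between the 2 embryos in which muscle genes were bright, the gap varied by gene. 14 of 31 members were higher in transgenic sample 1 than in wild-type sample 3 by more than 1, where 2.17% of all probes were, and 0 were lower by more than 1, where 0.977% of all probes were. 9 members stood more than 1 above each embryo numbered over 200 in wild-type sample 3: Myl1, Mylpf, Tnni2, Tnnc2, Tnnt1, Tnnc1, Actc1, Myl4 and Acta1. In these 9 the gap between the embryos lay between 1.47 and 2.35, with a median of 1.83. These 9 were picked by their values in wild-type sample 3, so the range is not that of muscle genes in general. The muscle gene Sln and the second Tpm2 probe, which pass the same cut, had gaps of 0.92 and 1.37. Over all 23 members above the background level in both embryos it ran from -0.19 to 2.35, with a median of 1.63. Within the 9 picked genes, the gap was 1.47 to 2.35 over the 4 fast genes and 1.79 and 1.83 in the slow genes Tnnt1 and Tnnc1. It was 2.03 and 2.26 in the embryonic genes Myl4 and Actc1, and 2.06 in Acta1. Fast and slow genes among the 23 but outside the 9 had smaller gaps. These were 0.82 for Tnnt3, 0.34 for Actn3, 0.81 for Tnni1, 0.30 for Myl3 and 0.14 for Myl2. With 1 embryo on each side there is no test of these gaps, and they are relative to a median of -0.02 over all probes.

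**Figure D2:**
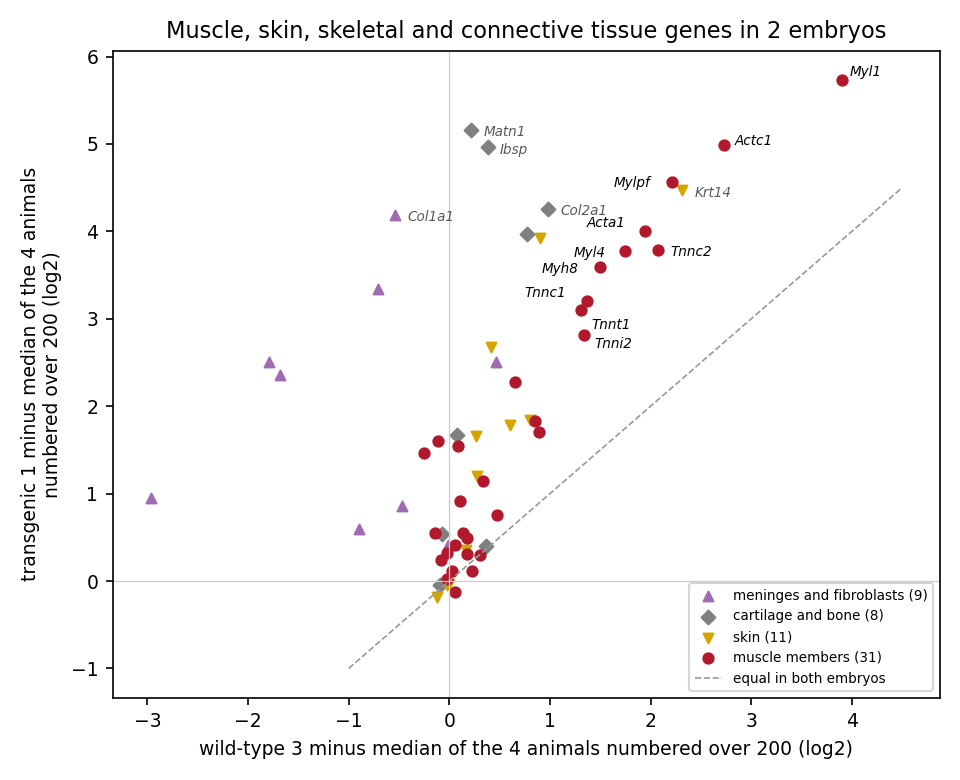
Log2 value of each gene in wild-type sample 3 (horizontal axis) and transgenic sample 1 (vertical axis), both minus the median of the 4 animals numbered over 200, for the 31 members and 3 marker lists. The labelled muscle members and Krt14 lie along one band to the right, from Tnni2 to Myl1. Other members lie outside it, such as Tpm1 (-0.11), Tpm2 (-0.25), Des (0.09) and Actn2 (0.65 on the horizontal axis). Cartilage and bone genes such as Matn1 and Col2a1 lie between 0 and 1 on the horizontal axis, and most fibroblast genes, Col1a1 among them, lie left of 0.

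Muscle genes were a minority of the probes that stood out in wild-type sample 3, although 9 of 31 members were among them. Myl1 (3.89) and Actc1 (2.66) had the largest excess over the embryos numbered over 200 in that sample. There, 32 of the 25697 probes (0.125%) lay more than 1 above every embryo numbered over 200, and 10 of them belonged to members, the further one being the second Tpm2 probe. One more was Sln, the muscle calcium pump inhibitor sarcolipin. All 11 of these muscle probes exceeded the same 4 embryos by more than 1 in transgenic sample 1 as well, as did 10 of the remaining 21. Those 21 included Krt14, the synaptic adhesion gene Nrxn3, which was at 11.56 in wild-type sample 3 and 8.58 in transgenic sample 1, and many genes of DNA replication, repair and cell division: Cdca7, Pbk, Rad54b, Mcm2, Kif15, Rad54l, Top2a, Cdc20, Ncapd2 and Espl1. These were named after their values were seen. In transgenic sample 1, 16 of 31 members exceeded the 4 embryos by more than 1, where 331 probes in all did so (1.29%).

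The design's contrast asks whether the Cyfip1 BAC altered expression in the developing cortex, and no muscle gene passed it. In limma's fit of all 25697 probes 0 of 31 members passed an adjusted p of 0.05, as did 0.0% of all probes, and 0 members passed an unadjusted 0.05, where 2.91% of all probes were higher and 3.42% lower. 26 of the 31 members had a difference above 0, where 46.0% of all probes did, and the median difference was 0.28 against -0.01 over all probes. Leaving out transgenic sample 1 brought that median to -0.17, and leaving out wild-type sample 3 brought it to 0.56. It was 0.57 and 0.63 when transgenic sample 2 or 3 was left out, and 0.14 when either other wild-type embryo was. It was 0.02 with array weights. Among the 4 embryos numbered over 200 the median was -0.03, 10 of 31 differences lay above 0 (Tnnt1 only just), and groups did not overlap for 1 member with higher and 3 with lower transgenic values, where 16.3% and 19.7% of all probes did so. At an unadjusted p under 0.05 those 4 embryos gave 1 member, where 6.01% of all probes passed, which was Actn3, at -0.28 (SE 0.10, limma adjusted p = 0.824). That was its brightest probe, with values of 6.96 to 7.34 in these embryos. The further Actn3 probes differed by 0.03 and -0.01 there, with overlapping groups, so the difference depended on the probe.

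**Figure D3:**
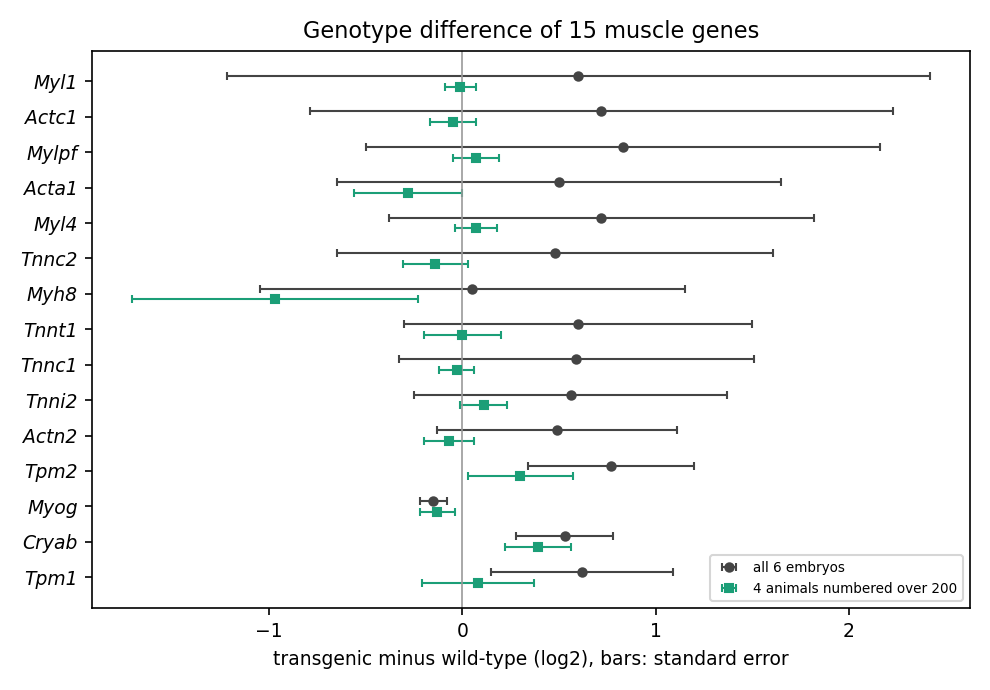
Transgenic minus wild-type difference (log2, horizontal axis) of the 15 members printed with a difference, with the standard error of the limma fit as bars, over all 6 embryos (circles) and over the 4 numbered over 200 (squares). Without the 2 bright embryos the differences of Myl1, Actc1, Tnnt1 and Tnnc1 lie within 0.05 of 0.

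Spread within the groups exceeded the difference between them for the brightest members. The SD of Myl1 was 3.31 around a mean of 9.08 in transgenic and 2.25 around 8.48 in wild-type embryos (n = 3 each), and that of Actc1 was 2.91 around 8.48 and 1.58 around 7.76. Among the 4 embryos numbered over 200 the median range of a member was 0.23, equal to the median range of all probes there. Myh8 (2.40), Tpm1 (0.88), Acta1 (0.86), Tpm2 (0.83) and Cryab (0.72) were the 5 members with a range above 0.5 in those embryos, and wild-type sample 2 was lowest for the last 4. With animal number range as a block, where 12.1% of all probes had an unadjusted p under 0.05, 1 member did: Cryab, at 0.53 (SE 0.15, limma adjusted p = 0.328).

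Other muscle genes were highest in transgenic sample 1 in part, and 0 of them passed the genotype test. Of 24 further sarcomere and Z-disc genes with a probe, 9 were highest in transgenic sample 1 and 13 exceeded the background level in any embryo. Csrp3, a muscle LIM protein of the Z-disc, had its 2 highest values in the bright embryos, 9.09 (transgenic) and 7.61 (wild-type), against 6.65 to 6.89 elsewhere. Myoz2, a calcineurin-binding Z-disc protein, stood at 7.90 and 7.29 in the same embryos. Myom1, which links thick filaments at the M-band, stood at 8.38 in transgenic sample 1 and between 7.28 and 7.50 in all others. Myh4, the adult fast heavy chain, exceeded the background level in no embryo.

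Among 20 genes of calcium release and the neuromuscular junction, 11 were highest in transgenic sample 1. Sln had 9.34 there, 8.42 in wild-type sample 3, and 6.75 to 7.19 elsewhere. Atp2a1, the calcium pump of fast fibres, stood at 9.30, 7.31 and 7.90 against 7.31, 7.13 and 7.59, so that transgenic sample 3 was second. Chrng, the fetal subunit of the muscle acetylcholine receptor, was above the background level in transgenic sample 1 (8.23) only. Of 13 genes of muscle metabolism and membrane, 9 were highest in transgenic sample 1. The muscle glycolytic enzymes Pgam2 and Eno3 stood at 8.45 and 8.94 there, with 7.63 and 8.37 for wild-type sample 3. Of 7 myoblast genes, 2 exceeded the background level in any embryo: Mef2c, which cortical neurons also express, in all 6, and the fusion gene Mymk in transgenic sample 1 alone. Myf5, Pax3 and Pax7 did so in none.

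Markers of other tissues moved with the muscle genes in part. In transgenic sample 1 the only cardiac list gene above the background level was Sln, which the muscle lists also hold. Nppa exceeded that level only in the 4 embryos numbered over 200 (7.37 to 7.84). Gata4 did so in every embryo but transgenic sample 1 (7.08 to 7.26), and Hand2 in wild-type sample 3 only (7.20). Myl7, Nppb, Nkx2-5, Tbx5, Tbx20 and Ryr2 exceeded it in no embryo. The mean of the skin genes was 8.87 in transgenic sample 1, 7.77 in wild-type sample 3, and 7.21 to 7.45 elsewhere. Krt14, the basal epidermal keratin, stood at 11.31 and 9.15 in these embryos, a gap of 2.16. That lies within the range of the 9 muscle genes, which were picked by a cut in wild-type sample 3 that Krt14 also passes. Skin genes exceeded the embryos numbered over 200 by more than 1 in 6 of 11 cases in transgenic sample 1 and in 1 of 11, Krt14, in wild-type sample 3.

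Skeletal and connective tissue genes were high in transgenic sample 1, and 0 of them exceeded the embryos numbered over 200 by more than 1 in wild-type sample 3. Cartilage and bone genes had a mean of 9.82 there, 7.53 in wild-type sample 3 and 7.18 to 7.23 elsewhere. For 5 of the 8 the order was transgenic sample 1 first and wild-type sample 3 second, an order that 6.26% of all probes shared. Matn1, a cartilage matrix protein, stood at 12.03 and 7.08 in these embryos, Col2a1, the main cartilage collagen, at 13.26 and 9.98, and the bone matrix protein Ibsp at 11.87 and 7.28. Meningeal and fibroblast genes had a mean of 10.48 and 7.56 there, the second being near the lowest of the 6, which was 7.55 in wild-type sample 2. Col1a1, a chain of type I collagen, stood at 12.85 and 8.12. The median gap between these embryos was 3.92 over the 9 fibroblast genes and 2.40 over the 8 cartilage and bone genes, against 1.83 over the 9 muscle genes; these lists were not chosen in the same way, and the differences between the gaps were not tested. The erythroid mean was also high in these embryos, 12.12 (transgenic) and 12.16 (wild-type) against 10.86 to 11.58 elsewhere. Of its genes, Alas2 and Slc4a1 had their highest values in these embryos, while Hba-a1 ranged over only 0.26. Hbb-y was nearly as high in transgenic sample 3 (13.82) as in wild-type sample 3 (13.87). Cortex markers were present in both embryos, with means of 9.61 and 9.45. The part of other tissue or blood in the muscle values was not tested.

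**Figure D4:**
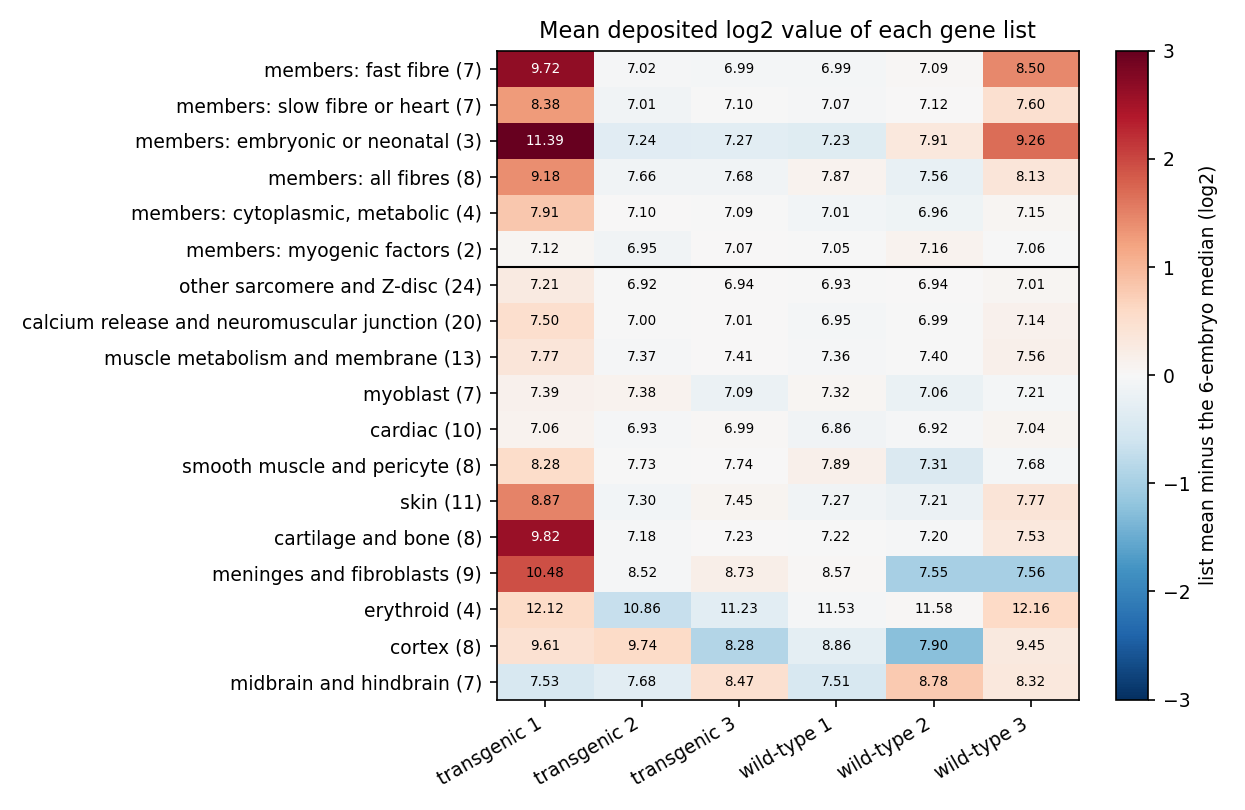
Mean deposited log2 value (printed in each cell) of each member class and each marker list in each embryo, with the number of genes in brackets; colour shows the mean minus the median of the 6 embryos. Embryonic, fast and slow classes are high in transgenic sample 1 and wild-type sample 3, whereas the cartilage and fibroblast lists are high mainly in transgenic sample 1.

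The genes that are no members and were most like the muscle genes came from several tissues. The likeness measure was Pearson's correlation, over the 6 arrays, with the mean of the 27 members above background in any embryo, among 342 genes with a range of at least 2. It describes these arrays only, since 2 arrays set the pattern. All 27 members were above the background level in transgenic sample 1, and Casq2, Mb and Myod1 in that embryo alone. The mean was thus built from members that passed where they were high, and the ranking is a description without a test. Highest were Csrp3 (r = 0.9965), Krt14 (r = 0.9958), Osr2 (r = 0.9875), Sfrp2 (r = 0.9855) and Meox2 (r = 0.9807). The remaining 7 of the 12 named were the epidermal keratins Krt15 and Krt17, Shisa2, Sln, the mesenchymal factor Twist1, the channel gene Panx3 and Sp7, a transcription factor of bone-forming cells. Gaps between the bright embryos ran, over all 12, from 0.86 for Shisa2 and 0.92 for Sln to 3.65 for Panx3.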

How the data were processed

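Expression was measured on 6 arrays, 3 per genotype, 1 per embryo; groups follow each sample's genotype label. The deposited scanner table holds 1 linear intensity per probe and array; per the submitters' processing notes BeadStudio was used, version and settings not given. The authors' deposited log2 values equal quantile-normalized log2 intensities to within 0.00056, with no background correction. Their median is 7.18 in every array and their direction is that of the intensity. Array number limits the precision.

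The deposited values were used, as the member rule takes them, and all 25697 probes were tested, so that no member entered only where it was bright. The test was limma 3.58.1 (R 4.3.3), lmFit and eBayes, two-sided, no covariate, Benjamini-Hochberg over all probes, threshold 0.05, tried on simulated data. An exact permutation test of 3 against 3 cannot go below 0.1. Embryos are treated as separate animals; p-values measure the spread between these samples. Probes were named through the platform annotation, updated by gene identifier (23962 of 23978 found, 0 symbols changed, 1719 probes unnamed). Alternatives were normexp (offset 50), median scaling, cyclic loess, an intensity filter, an intensity trend, array weights, animal number range as a block, the next probe, and leaving out arrays. Differences with SE are printed for the 12 members of largest range and the 3 of smallest p beside them; marker genes are those of largest range in their list or defining ones, some of them chosen after values were seen. Members, lists and tests were chosen with earlier results of these data known.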

Additional observations from a re-analysis of the deposited data

How the results depend on the processing

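No member passed in any alternative run (0 in each), and over all probes the count was 0 to 1 with 1 embryo left out, the 1 coming when wild-type sample 1 was left out. Unadjusted p-values under 0.05 numbered 1629 and, with animal number range as a block, 3097; without transgenic sample 1 they numbered 1112. Under median scaling the split was 1137 higher and 701 lower, against 749 and 880. The median member difference ranged from -0.17 to 0.63 with 1 embryo left out and from -0.03 (the 4 embryos numbered over 200, where its sign turned) to 0.53 under the other alternatives. With array weights the sign turned for Myl1 (-0.13), Acta1 (-0.08), Tnnc2 (-0.06) and Myh8 (-0.65). Among the 4 embryos numbered over 200 it turned for Myl1 (-0.01), Actc1 (-0.05), Acta1 (-0.28), Tnnc2 (-0.14), Myh8 (-0.97), Tnnc1 (-0.03) and Actn2 (-0.07), and with the next probe for Myog (0.13). Leaving out 1 embryo gave -1.31 to 1.90 for Myl1, -0.96 to 1.63 for Actc1, -0.68 to 1.63 for Mylpf, -0.83 to 1.17 for Acta1, -0.54 to 1.37 for Myl4, -0.79 to 1.17 for Tnnc2, -1.15 to 0.66 for Myh8, -0.44 to 1.23 for Tnnt1, -0.49 to 1.14 for Tnnc1, -0.35 to 1.08 for Tnni2 and -0.27 to 0.89 for Actn2. Each of these 11 turned without transgenic sample 1; Myl1 also turned without wild-type sample 1 or 2, and Myh8 without wild-type sample 1. Of 125 single-gene differences under alternatives other than leaving out 1 embryo, the remaining 113 kept their direction. With the 99th percentile as background level, fewer members exceeded it in every embryo. In transgenic samples 1, 2 and 3 the counts were 25, 11 and 10 in place of 27, 16 and 13. In wild-type samples 1, 2 and 3 they were 10, 8 and 20 in place of 15, 13 and 23. The median gap between transgenic sample 1 and wild-type sample 3, examined after seeing the data, was 1.84 to 1.91 under normexp, median scaling and cyclic loess. The cause of these shifts was not tested. No paired analysis was possible because the labels give no replicate number that pairs transgenic with wild-type embryos. Outside the 2 bright embryos 13 to 16 of 31 members exceeded the background level, which limits what their differences can show.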
